A study of Mus musculus with 18 samples.

Results

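The genes described here mark the cells that wrap brain blood vessels and the fibroblasts of the meninges. They are 34 genes in all: 6 of smooth muscle, 8 of pericytes or shared by both kinds of mural cell, and 20 of fibroblasts. Each gene was read from the probeset whose annotation names that gene alone, the brightest where there were several. All 34 genes had such a probeset, and 0 of them had more than 1, so the 34 probesets stand among 21789 that name a single gene and 35557 on the array table. RNA came from the lateral septum (LS) of female outbred hsd:ICR mice, about 70 days old at dissection, and each mouse gave 1 Affymetrix Mouse Gene 1.0 ST array. Of the 18 arrays, 6 were from virgin mice (in diestrus, never mated) and 6 from lactating maternal mice nursing their litters. The last 6 were from mice whose pups were taken away on postpartum Day 2 (pups removed, all in diestrus). Litters of both groups of mothers were set to 11 pups, and both groups were dissected on postpartum Day 7. The maternal against virgin comparison asks what differs in the LS of a nursing mother, and the maternal against pups removed comparison asks what needs the pups to stay. The tissue was punched out of frozen sections, so a sample holds neurons, glia, vessels and any meninges or choroid plexus inside the punch, and in such bulk tissue fewer cells of a type and less RNA per cell cannot be told apart.

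Values are log2 signals, so a difference of 1 is a doubling. Array medians lay between 7.61 and 7.70. Of 9 septal neuron markers listed, Zic1, a transcription factor of septal development, lay between 11.88 and 12.18 over all arrays. Gad1, the enzyme that makes GABA, lay between 12.17 and 12.36, and Nts (neurotensin) between 8.29 and 9.40. The mean over the 9 markers ran from 10.88 to 10.96 in virgin, 10.84 to 10.95 in maternal and 10.75 to 11.05 in pups removed mice. All 9 had a lower mean in pups removed than in virgin mice, with a median difference of -0.05. A log2 signal also depends on how well a probeset binds, so levels are compared between arrays and never between genes.

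Arterioles in the brain are sheathed by smooth muscle cells, which contract through smooth muscle actin and myosin and set vessel diameter. Capillaries carry pericytes, which share a basement membrane with the endothelium, depend on PDGF from it, and help keep the blood-brain barrier. Fibroblasts lie in the leptomeninges and along larger vessels, and they secrete fibrillar collagens, small leucine-rich proteoglycans and growth factors. The contractile genes of smooth muscle are known targets of serum response factor (SRF), which binds a DNA element called the CArG box together with the coactivator myocardin.

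Of the 34 genes, 25 had a promoter window in the RefSeq promoter table (build GRCm38.p6). The 250 bases before each start were searched on both strands for the CArG box, exact or with 1 mismatch in its inner 6 letters. The box reads the same way on either strand. The 25 genes had 33 windows, since some have several starts. An exact box stood in 1.47% of all 32851 windows and in 2 of the 33 (6.06%), 1 of Myl9 and 1 of Igf2. With 1 mismatch allowed it stood in 8.59% of all windows and in 5 of the 33 (15.2%), adding Acta2, Col1a2 and Col6a3. The stretches before Acta2 (chr19:34255386-34255469, minus strand) and Myl9 (chr2:156775291-156775386, plus strand) are printed because these smooth muscle genes were low on the same maternal arrays. Each holds 2 boxes, shown in capitals, of which the first in Myl9 is exact. Of the other smooth muscle genes, Cnn1 and Tpm2 had no box, and Tagln and Myh11 had no window. Those maternal arrays, replicates 2, 3 and 4, stood at 9.24, 9.27 and 9.12 for Srf, the last being the lowest array of the study. Maternal replicates 1, 5 and 6 stood at 9.32, 9.23 and 9.33. For Myocd, the gene of myocardin, replicates 2, 3 and 4 had 6.07, 6.03 and 6.37, and replicates 1, 5 and 6 had 6.01, 5.91 and 6.08. The Myocd signal was low, with a mean of 6.09. The differences of maternal from pups removed means were -0.04 for Srf and -0.005 for Myocd. These are RNA signals, and the activity of SRF and myocardin was not tested. A match of letters is a description and shows neither binding nor regulation in these samples.
Acta2: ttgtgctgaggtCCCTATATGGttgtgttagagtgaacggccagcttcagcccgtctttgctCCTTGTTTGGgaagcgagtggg
Myl9: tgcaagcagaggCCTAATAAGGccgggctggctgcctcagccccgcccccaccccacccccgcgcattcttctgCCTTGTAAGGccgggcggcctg

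In the fit made here, a limma fit over all probesets, none of the 34 genes was called different between any pair of groups. A call needed an adjusted p under 0.25, the study's threshold. The paper's own fit called Fbln5 at that threshold against both virgin and pups removed mice. Its total of called targets for maternal against virgin was also larger than the total here. For maternal against virgin, 0 of 34 genes were called, against 585 of 35557 probesets (1.65%). For maternal against pups removed, 0 of 34 were called, against 11 probesets (0.0309%). For pups removed against virgin, 0 of 34 were called, against 74 probesets (0.208%). At an unadjusted p under 0.05, 2 of the 34 genes passed for maternal against virgin, beside 10.4% of all probesets. For maternal against pups removed 9 of the 34 passed, or 26.5%, beside 8.96% of all probesets, and 7 of those 9 were lower in maternal mice, or 20.6% of the genes beside 5.63% of all probesets. For pups removed against virgin 0 of the 34 passed, beside 8.13% of all probesets. These comparisons share arrays with each other and are not independent. The genes were chosen with earlier results of these data known, so the shares carry no test. Among the 7 lower genes, Acta2, Myl9, Dcn and Bgn were low on the same maternal arrays and are not independent of each other.

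**Figure D1:**
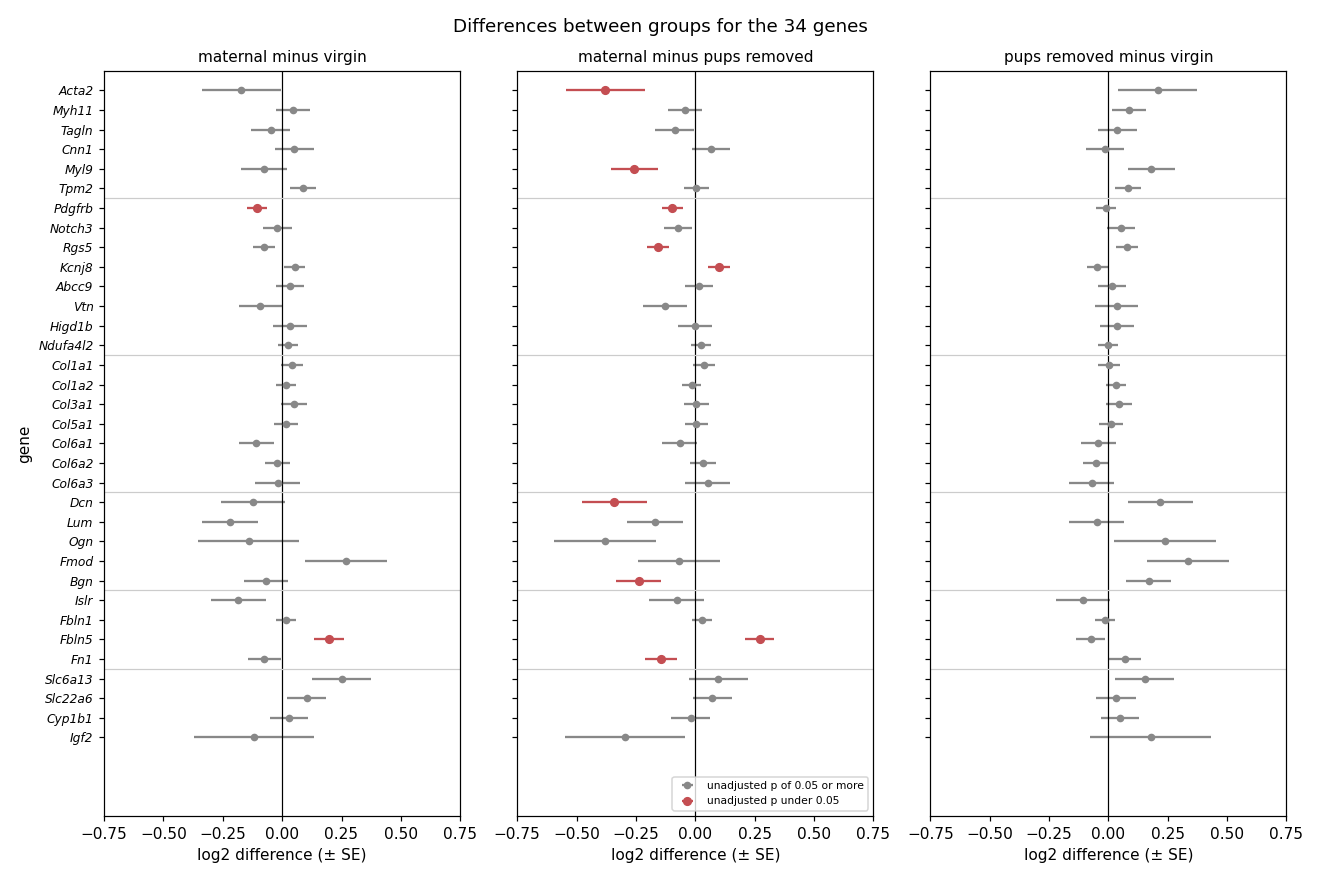
Log2 difference between group means for each of the 34 genes (points, with the standard error from the limma fit as bars), in the order smooth muscle, pericyte, collagens, proteoglycans, other matrix proteins, and transporters, enzyme and growth factor. The 9 genes in red in the middle panel have an unadjusted p under 0.05 for maternal against pups removed, with Acta2 lowest at -0.38 and Fbln5 highest at 0.27, and 0 genes are red in the right panel.

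Among the smooth muscle genes, Acta2 (smooth muscle alpha-actin, the main contractile actin of arterioles) spread most. Its log2 signal was 9.02 at the lowest, 9.13 at the median and 9.36 at the highest in virgin mice. In maternal mice it was 8.44, 8.99 and 9.57, and in pups removed mice 9.28, 9.34 and 9.50. The maternal arrays formed 2 sets with nothing between them: replicates 2, 3 and 4 stood at 8.61, 8.44 and 8.52, below every other array of the study, and replicates 1, 5 and 6 at 9.36, 9.57 and 9.39, among the virgin and pups removed arrays or above them. The maternal group therefore overlapped both others. The mean was 8.98 ± 0.51 (SD, n = 6) in maternal, 9.36 ± 0.09 in pups removed and 9.15 ± 0.15 in virgin mice. The difference of maternal from pups removed was -0.38 ± 0.17 (SE), a ratio of 0.768, with an unadjusted p of 0.0353 and an adjusted p of 0.533 by limma.

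Myl9, the regulatory light chain of smooth muscle myosin, had the same low arrays. Maternal replicates 2, 3 and 4 stood at 8.54, 8.52 and 8.55, below the other 3 maternal arrays (8.83 to 9.11) and below all 6 pups removed arrays (8.85 to 9.13), while virgin arrays ran from 8.64 to 8.96. Its difference of maternal from pups removed was -0.26 ± 0.10 (SE; adjusted p = 0.481 by limma). Tagln (transgelin, an actin-binding protein of contractile cells) had 7.53, 7.47 and 7.50 on those 3 arrays and 7.70 to 7.90 on the other 3, but here virgin replicate 4 (7.48) and pups removed replicate 5 (7.46) were as low. Myh11, the smooth muscle myosin heavy chain, and Cnn1 (calponin, which regulates actomyosin) also had replicates 2, 3 and 4 as the lowest maternal arrays, with gaps to the next array of only 0.03 and 0.02. The 3 groups overlapped for both. Tpm2, a tropomyosin of the thin filament, did not follow that order: its maternal arrays all lay between 6.93 and 7.04, and pups removed replicate 4 stood alone at 7.22.

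Pericyte genes differed less between arrays. Pdgfrb, the receptor through which endothelial PDGF recruits and keeps pericytes, was 8.95, 8.97 and 9.14 (lowest, median, highest) in virgin mice, 8.81, 8.91 and 8.95 in maternal mice and 8.92, 9.00 and 9.09 in pups removed mice. Maternal arrays reached no higher than the lowest virgin value, which they shared, so the groups touched without being apart. The maternal mean was lower than the virgin mean by a log2 difference of -0.11 ± 0.04 (SE; adjusted p = 0.401 by limma) and lower than the pups removed mean by -0.10 ± 0.04 (adjusted p = 0.544).

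Rgs5 (a regulator of G protein signaling, abundant in pericytes) was 8.76, 8.93 and 9.07 in virgin, 8.75, 8.85 and 8.94 in maternal and 8.92, 8.99 and 9.08 in pups removed mice. Only maternal replicate 5 (8.94) came above the lowest pups removed array. The difference of maternal from pups removed was -0.16 ± 0.05 (SE), the second smallest p among the 34 genes for this comparison (unadjusted p = 0.00341, adjusted p = 0.338 by limma). Under 29 alternative settings its adjusted p ran from 0.221 to 0.628, and it was called in 2 of them: 0.235 where only probesets naming 1 gene were tested, and 0.221 with array weights.

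Kcnj8 and Abcc9 encode the pore and the sulfonylurea receptor subunit of the ATP-sensitive potassium channel of mural cells, and their genes are neighbours in the genome. Kcnj8 was 7.31 to 7.49 in virgin, 7.38 to 7.56 in maternal and 7.23 to 7.49 in pups removed mice, a difference of maternal from pups removed of 0.10 ± 0.04 (SE; adjusted p = 0.541 by limma), opposite in sign to Rgs5 and Pdgfrb. Abcc9 was 7.80 to 8.08, 7.83 to 8.07 and 7.79 to 8.07 in the same order, with a difference of 0.02 ± 0.06. Vtn (vitronectin, a matrix protein that brain pericytes secrete) was the pericyte gene that split the maternal arrays: replicates 2, 3 and 4 stood at 9.38, 9.48 and 9.47 and the other 3 at 9.81 to 9.91, with 9.54 to 9.93 in virgin and 9.66 to 9.97 in pups removed mice. Its difference of maternal from pups removed was -0.13 ± 0.09 (SE; adjusted p = 0.715). Notch3, the Notch receptor of mural cells, ran from 8.05 to 8.46 over all arrays. Higd1b (a mitochondrial protein enriched in pericytes) ran from 6.44 to 6.89 and Ndufa4l2 (a mitochondrial protein induced by hypoxia) from 7.03 to 7.24. The 3 groups overlapped for each of these genes.

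**Figure D2:**
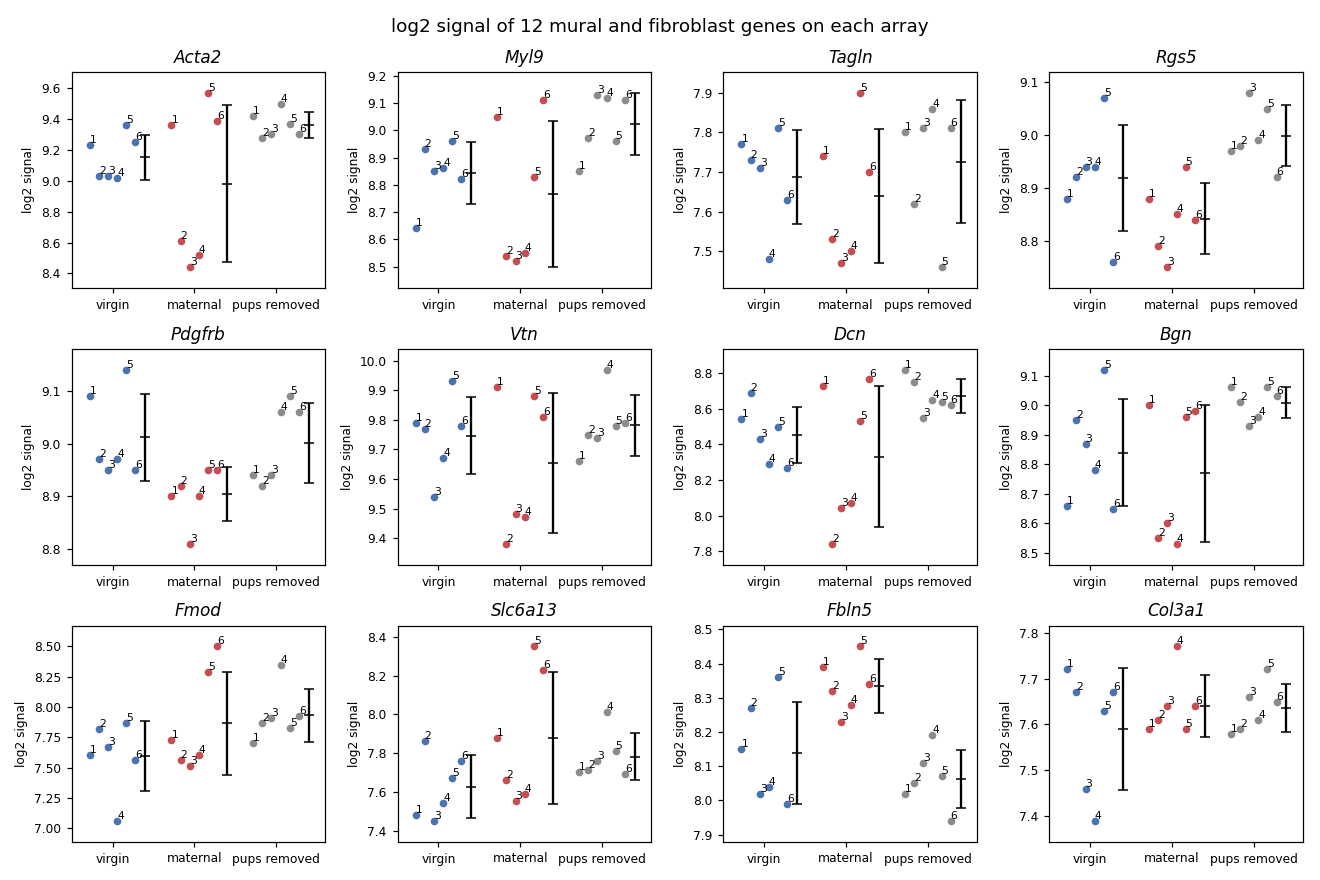
Log2 signal of 12 of the genes on each array (points, numbered by replicate), with the group mean and SD (n = 6) at the right of each group. Maternal replicates 2, 3 and 4 sit together at 8.44 to 8.61 for Acta2 and 7.84 to 8.07 for Dcn, apart from the other 3 maternal arrays, while Fbln5 is the gene whose maternal arrays (8.23 to 8.45) all lie above the pups removed arrays (7.94 to 8.19).

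The collagens varied least among the groups of fibroblast genes. Col1a1 and Col1a2, the chains of type I collagen, ran from 8.25 to 8.55 and from 8.05 to 8.33 over the 18 arrays, and Col3a1 (type III collagen) from 7.39 to 7.77. For all 3, virgin replicates 3 and 4 were the 2 lowest arrays of the study. Col5a1 (type V collagen, which starts fibrils) ran from 7.77 to 8.03. The type VI chains form beaded microfibrils around cells, and Col6a1 and Col6a2 are neighbours in the genome. Col6a1 ran from 8.28 to 8.80, Col6a2 from 8.05 to 8.37 and Col6a3 from 8.16 to 8.86, the last with its extremes both in pups removed mice. Differences between groups stayed within -0.11 and 0.05 over the 7 collagens and the 3 comparisons, and the median residual SD within groups was 0.09, below the 0.11 of all probesets. For 0 of the 7 did maternal replicates 2, 3 and 4 form the low end.

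The small leucine-rich proteoglycans, which bind collagen fibrils and growth factors, spread far more. Dcn (decorin) was 8.27, 8.47 and 8.69 (lowest, median, highest) in virgin, 7.84, 8.30 and 8.77 in maternal and 8.55, 8.65 and 8.82 in pups removed mice. Maternal replicates 2, 3 and 4 stood at 7.84, 8.04 and 8.07, below all other arrays, and replicates 1, 5 and 6 at 8.73, 8.53 and 8.77. The maternal mean of 8.33 ± 0.40 (SD, n = 6) differed from the pups removed mean of 8.67 ± 0.10 by -0.34 ± 0.14 (SE; unadjusted p = 0.0223, adjusted p = 0.494 by limma).

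Bgn, biglycan, repeated that order, with 8.55, 8.60 and 8.53 on maternal replicates 2, 3 and 4 and 8.96 to 9.00 on the others. Pups removed arrays lay close together (8.93 to 9.06) and virgin arrays were spread (8.65 to 9.12). Its difference of maternal from pups removed was -0.24 ± 0.09 (SE; adjusted p = 0.491 by limma). For all 5 genes of this group the same 3 arrays were the lowest maternal ones, and for 4 of them (Dcn, Ogn, Fmod and Bgn) they were also below every pups removed array. Fmod (fibromodulin, which regulates fibril assembly) ran highest on maternal replicates 6 and 5 (8.50 and 8.29) and on pups removed replicate 4 (8.35), with all other arrays between 7.06 and 7.93. Lum (lumican, whose gene neighbours Dcn) had 5.41 on maternal replicate 4 and 6.51 on virgin replicate 2 as its extremes. Its signal was low, with a mean of 5.98, and its gap between the 2 sets of maternal arrays was only 0.05. Ogn (osteoglycin) ran from 6.10 to 7.40, a spread within groups second only to that of Igf2, and the groups overlapped.

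Fbln5 (fibulin-5, which helps assemble elastic fibres) was the only one of the 34 genes whose maternal arrays lay wholly apart from another group. Its log2 signal was 8.23, 8.33 and 8.45 (lowest, median, highest) in maternal, 7.94, 8.06 and 8.19 in pups removed and 7.99, 8.10 and 8.36 in virgin mice. Every maternal array was above every pups removed array, and maternal and virgin arrays overlapped through virgin replicates 2 and 5 (8.27 and 8.36). Such separation was seen for 1 of 34 genes (2.94%), beside 0.529% of all probesets. For maternal against virgin and pups removed against virgin it was seen for 0 of the 34, beside 0.835% and 0.38% of all probesets. The difference was 0.27 ± 0.06 (SE) from pups removed, a 1.21-fold higher signal, and 0.20 ± 0.06 from virgin mice, with adjusted p of 0.278 and 0.268 by limma, just outside the threshold. The paper lists Fbln5 as significant at the same threshold in both comparisons, also higher in maternal mice.

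Small changes of the fit moved Fbln5 across that threshold. For maternal against pups removed its adjusted p ran from 0.132 to 0.519 over 29 alternatives and was under the threshold in 8, and for maternal against virgin it ran from 0.187 to 0.452 and was under the threshold in 5. Leaving out pups removed replicate 4 gave 0.173 and 0.242 for these comparisons, leaving out virgin replicate 5 gave 0.226 and 0.187, and leaving out maternal replicate 1 gave 0.231 for the first. The difference stayed between 0.25 and 0.30 against pups removed and between 0.17 and 0.24 against virgin mice. Its relative Fbln1 (fibulin-1, another matrix glycoprotein) ran from 7.96 to 8.20 over all arrays, with a difference of 0.03 ± 0.04 from pups removed.

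Fn1 (fibronectin) ran from 8.93 to 9.13 in virgin, 8.72 to 9.10 in maternal and 8.95 to 9.18 in pups removed mice. Maternal replicates 2 and 4 (8.72 and 8.74) were the lowest arrays of the study and replicate 3 was not low (8.95). The difference of maternal from pups removed was -0.14 ± 0.07 (SE; unadjusted p = 0.0494, adjusted p = 0.556 by limma). Islr, an immunoglobulin and leucine-rich repeat protein of mesenchymal cells, was lowest on maternal replicates 3 and 4 (8.14 and 8.29) and highest on virgin replicate 2 (8.95), and the groups overlapped.

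The transporters and enzyme of barrier fibroblasts had other arrays at the top. Slc6a13, a GABA and taurine transporter of leptomeningeal cells, stood at 8.35 and 8.23 on maternal replicates 5 and 6 and at 8.01 on pups removed replicate 4, with all other arrays between 7.45 and 7.88. Slc22a6, an organic anion transporter, had those maternal arrays at 7.51 and 7.50 and pups removed replicate 4 at 7.37, with all others between 6.99 and 7.35. Cyp1b1, a cytochrome P450 that metabolizes estradiol and retinoids, had them at 7.08, 6.90 and 7.03, with virgin replicate 2 at 6.94 and all others between 6.51 and 6.85. These are the same 3 arrays that were highest for Fmod. Slc6a13 differed between maternal and virgin mice by 0.25 ± 0.12 (SE; adjusted p = 0.501 by limma), and the groups overlapped.

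Igf2, the insulin-like growth factor that leptomeninges and choroid plexus both secrete, had the widest spread within groups of the 34 genes, with a residual SD of 0.47, wider than that of 98.7% of all probesets. It was 8.89, 9.79 and 10.44 (lowest, median, highest) in virgin, 9.09, 9.63 and 10.27 in maternal and 9.24, 10.07 and 10.36 in pups removed mice. The difference of maternal from pups removed was -0.30 ± 0.25 (SE; adjusted p = 0.765 by limma). Choroid plexus signal also varied between arrays. Ttr (transthyretin, the most abundant choroid plexus product) was between 8.34 and 9.22 on 5 arrays, virgin replicate 6, maternal replicates 2 and 5 and pups removed replicates 3 and 4, and between 11.13 and 13.83 on the other 13. The lowest Igf2 array of the virgin, maternal and pups removed groups (virgin replicate 6, maternal replicate 2 and pups removed replicate 3) was each time one of those 5. Igf2 was also low on maternal replicate 4 (9.18) and virgin replicate 1 (9.46), where Ttr was 11.13 and 12.87. Of the 14 choroid plexus markers listed, 12 had a probeset of their own. Their mean log2 signal ran from 7.64 to 9.54 over virgin, 7.68 to 9.05 over maternal and 7.58 to 9.49 over pups removed arrays. All 12 had a lower mean in maternal mice than in virgin mice (mean difference -0.59, median -0.51) and than in pups removed mice (mean difference -0.49, median -0.50). At an unadjusted p under 0.05, 1 of the 12 passed in each of these comparisons, and 0 of 12 were called in any comparison by limma. With the Ttr signal as a covariate, a setting chosen after the data were seen, the difference of Igf2 from pups removed was -0.18 and that of Acta2 -0.39. For maternal against virgin, Igf2 changed sign, from -0.12 to 0.15, while Acta2 went from -0.17 to -0.19. For pups removed against virgin, the Igf2 difference went from 0.18 to 0.33. Ogn also changed sign for maternal against virgin, from -0.14 to 0.04, and went from 0.24 to 0.34 for pups removed against virgin. For maternal against virgin, Dcn went from -0.12 to -0.05 and Bgn from -0.07 to -0.02. Against pups removed mice, with the covariate, Dcn was at -0.31 and Bgn at -0.22. The part of choroid plexus in the values of these genes was not tested further.

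**Figure D3:**
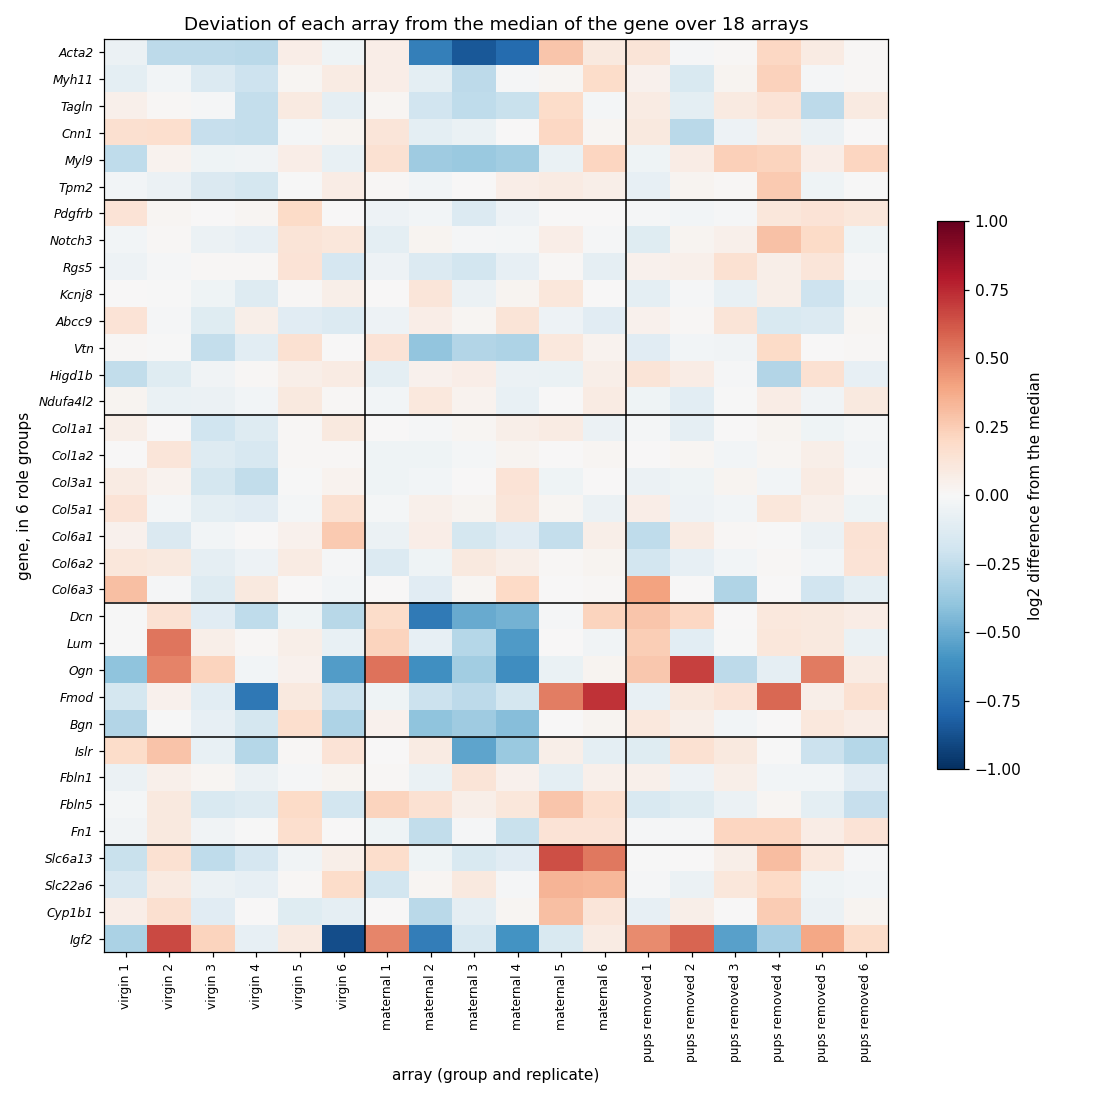
Log2 difference of each array (columns, by group and replicate) from the median over 18 arrays of each gene (one line per gene, in the 6 role groups set off by black lines), blue for lower and red for higher. Maternal replicates 2, 3 and 4 are blue for Acta2, Myl9, Vtn, Dcn and Bgn and near white for the collagens. Igf2 is lowest on virgin replicate 6 (8.89), and Ogn is lowest on maternal replicates 4 and 2 (6.10 and 6.11), with virgin replicate 6 next (6.16).

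Counted over the genes, maternal replicates 2, 3 and 4 were the 3 lowest maternal arrays for 14 of 34 genes (41.2%), beside 6.42% of all probesets. The count was 5 of 6 for smooth muscle, 1 of 8 for pericyte genes, 0 of 7 for collagens, 5 of 5 for small leucine-rich proteoglycans, 1 of 4 for the other matrix proteins and 2 of 4 for the transporters, enzyme and growth factor. For 9 of 34 genes (26.5%) these 3 arrays were also below all 6 pups removed arrays, beside 3.02% of all probesets. This array set was picked after the values were seen, so the counts describe the order and carry no test. Among genes of the other lists, the same 3 maternal arrays were lowest for 6 of 15 other smooth muscle genes and 8 of 24 other meningeal fibroblast genes. They were lowest for 1 of 7 other small leucine-rich proteoglycans (14.3%), unlike the 5 of 5 above. Both proteoglycan lists hold genes of low signal, with means of 5.98 for Lum, 5.21 for Omd, 5.49 for Kera and 5.99 for Epyc. The count was 3 of 16 for other pericyte genes, 3 of 15 for endothelial genes, 2 of 16 for collagen processing, 2 of 13 for basement membrane, 1 of 7 for elastic fibre, 2 of 19 for mural recruitment and 1 of 7 for perivascular macrophage genes. It was 0 of 12 for choroid plexus, 0 of 9 for ependymal, 0 of 2 for red cell and 0 of 9 for septal neuron markers.

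The mean log2 signal over each group of genes gives the same contrast by array. Over the 6 smooth muscle genes it ran from 7.71 to 7.94 in virgin, 7.61 to 8.03 in maternal and 7.84 to 8.10 in pups removed mice, with maternal replicates 2, 3 and 4 at 7.67, 7.61 and 7.69. Over the 5 proteoglycans those arrays had 7.19, 7.24 and 7.14, and the other 3 maternal arrays 7.68 to 7.79. Over the 8 pericyte genes the whole range was 8.06 to 8.22. Mean differences of maternal from pups removed were -0.12 for smooth muscle, -0.04 for pericyte and -0.06 for fibroblast genes, and from virgin mice -0.02, -0.02 and -0.00. The median difference of maternal from pups removed was -0.06 for smooth muscle, -0.04 for pericyte and -0.02 for fibroblast genes, and -0.00 over all probesets. For pups removed against virgin mice the mean differences were 0.10, 0.02 and 0.06, and the pericyte value turned negative under both other scalings of the arrays.

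**Figure D4:**
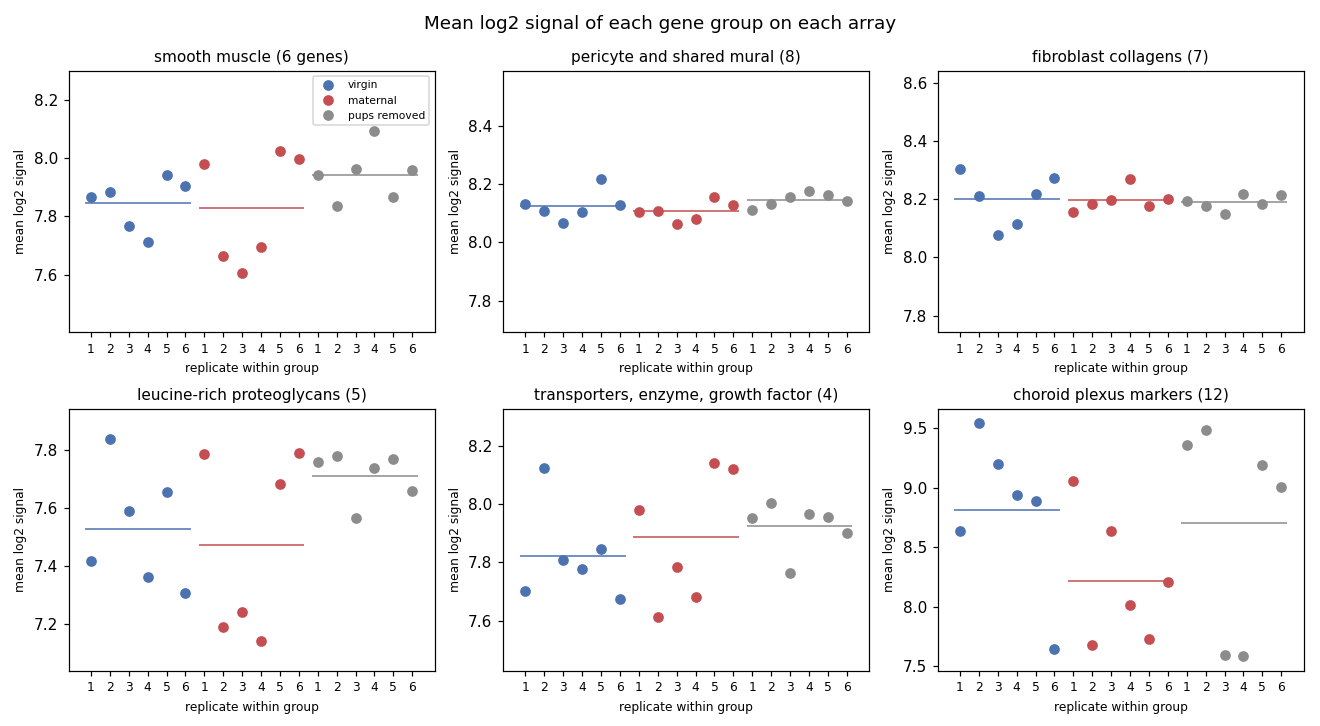
Mean log2 signal of each group of genes on each of the 18 arrays (points, by replicate within group), with the group mean as a line. The first 5 panels span the same height in log2 units and the choroid plexus panel a larger one. Maternal replicates 2, 3 and 4 lie at 7.61 to 7.69 for smooth muscle genes, while pericyte genes stay between 8.06 and 8.22. Choroid plexus markers are lowest among maternal arrays on replicates 2, 5 and 4 (7.68, 7.72 and 8.01), with replicate 3 at 8.64. The low arrays of the 2 panels thus overlap in part.

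Other genes of these cells were read from lists that hold none of the 34. Of 15 further smooth muscle genes, 0 were called in any comparison, and the smallest p for maternal against pups removed was that of Itga8 (integrin alpha 8), at -0.18 ± 0.07 (SE; adjusted p = 0.516 by limma). Of 18 further pericyte genes 16 had a probeset of their own and 0 were called. Pde5a, the phosphodiesterase that breaks down cyclic GMP, was nearest at -0.13 (adjusted p = 0.459), and 14 of the 16 were lower in maternal than in pups removed mice, with a median of -0.03. Of 25 further meningeal fibroblast genes 24 had a probeset and 0 were called. Among them Slc22a8, an organic anion transporter, was at -0.24 (adjusted p = 0.322) and Bmp6, a bone morphogenetic protein, at -0.41 (adjusted p = 0.355) for maternal against pups removed. Ptgds, the prostaglandin D synthase of leptomeninges, was at 0.54 ± 0.19 (SE) against virgin mice (adjusted p = 0.318).

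Of 7 further small leucine-rich proteoglycans 0 were called. Ecm2 was the closest, at -0.27 for maternal against pups removed (adjusted p = 0.278) and 0.21 for pups removed against virgin mice (adjusted p = 0.366). Of 18 genes of collagen processing and matrix turnover 16 had a probeset and 0 were called, with Lox (lysyl oxidase, which cross-links collagen and elastin) at 0.11 for maternal against pups removed (adjusted p = 0.433). Of 9 elastic fibre genes, the pathway Fbln5 belongs to, 7 had a probeset and 0 were called. Mfap4 was nearest, at -0.12 against virgin mice (adjusted p = 0.444), opposite in sign to Fbln5.

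Among 13 basement membrane genes 1 was called: Lamb1 (laminin beta 1, part of the sheet between endothelium and pericytes) was lower in maternal than in virgin mice by -0.22 ± 0.06 (SE; adjusted p = 0.206 by limma). Of 19 genes that recruit mural cells 0 were called, with Tek (the angiopoietin receptor of endothelium) at -0.18 for maternal against pups removed (adjusted p = 0.391). Of 16 endothelial genes 15 had a probeset and 1 was called: Flt1, a VEGF receptor, was higher in maternal than in virgin mice by 0.15 ± 0.04 (SE; adjusted p = 0.190). Both calls depended on single arrays. Lamb1 was called in 17 of 29 alternatives (adjusted p from 0.111 to 0.382) and lost without any one of virgin replicates 2, 3, 4 or 5 or maternal replicates 2, 3, 4, 5 or 6, with a replicate block or with the Ttr covariate. Flt1 was called in 20 of 29 (0.151 to 0.351) and lost without virgin replicate 2, 3 or 4 or maternal replicate 4, 5 or 6, with arrays centred on their medians or with the Ttr covariate. An adjusted p under 0.05 lost both. For maternal against pups removed 11 of the 15 endothelial genes were lower, beside 18451 of 35557 probesets. Their median was -0.05, near the -0.03 of the further pericyte genes. For pups removed against virgin mice 14 of the 15 endothelial and 15 of the 16 further pericyte genes were higher, beside 20270 of 35557 probesets. For maternal against virgin mice 8 of the 15 and 7 of the 16 were higher, beside 19859 of 35557 probesets. The perivascular macrophage list (7 genes) and the red cell list (2 of 8 with a probeset) had 0 called. Alas2, the heme synthesis enzyme of red cell precursors, was at 0.36 for maternal against pups removed (adjusted p = 0.275). The ependymal list (9 genes) had 0 called, with mean log2 signals from 7.98 to 8.45 over virgin, 7.71 to 8.31 over maternal and 7.86 to 8.48 over pups removed arrays. All 9 had a lower mean in maternal mice than in either other group, with a median of -0.29 against both. At an unadjusted p under 0.05, 3 of the 9 passed against virgin and 5 of the 9 against pups removed mice. Their mean difference from pups removed mice was -0.28, beside -0.12 for the smooth muscle and -0.06 for the fibroblast genes, and the part of ependymal tissue in those values was not tested.

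Gene pairs were compared across arrays after each group's mean was removed, with 10 pairs in the family. Where a gene split the maternal arrays the pair was taken over the 12 virgin and pups removed arrays, and Igf2 with Ttr over the 13 arrays with high Ttr; these array sets were chosen after the values were seen. Type I and III collagen, Col1a1 with Col3a1, had a Pearson r of 0.70 over 18 arrays (permutation p = 0.024, adjusted 0.0799; Spearman rho 0.577, permutation p = 0.030, adjusted 0.125) and 0.624 without the 2 arrays farthest from the median. Dcn with Igf2 had r = 0.725 over 12 arrays (permutation p = 0.0129, adjusted 0.0643; rho 0.685, permutation p = 0.0228, adjusted 0.125), and 0.568 without 2 arrays. Those 12 arrays include virgin replicate 6 and pups removed replicates 3 and 4, where Ttr was low. Virgin replicate 6 and pups removed replicate 3 were the lowest arrays of their groups for both Dcn and Igf2. The part of choroid plexus in this pair was not tested. Igf2 with Ttr had r = 0.79 over 13 arrays (permutation p = 0.0098, adjusted 0.0643; rho 0.681, permutation p = 0.0436, adjusted 0.125), and 0.677 without 2 arrays. None of the 10 pairs had an adjusted p under 0.05.

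The other 7 pairs had Pearson r between -0.125 and 0.392. Acta2 with Tagln had r = 0.392 (permutation p = 0.198, adjusted 0.496; rho 0.548, permutation p = 0.0499, adjusted 0.125) and 0.12 without 2 arrays. Acta2 with Dcn, which share their low maternal arrays, had r = 0.0236 over the 12 virgin and pups removed arrays (permutation p = 0.951, adjusted 0.951; rho 0.0737, permutation p = 0.838, adjusted 0.908). The neighbouring channel genes Abcc9 and Kcnj8 had r = -0.0829 over 18 arrays (permutation p = 0.763, adjusted 0.951; rho -0.0501, permutation p = 0.855, adjusted 0.908).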

How the data were processed

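The authors summarised 18 Affymetrix Mouse Gene 1.0 ST arrays with PLIER and GC-bin background correction in Affymetrix Power Tools 1.12.0, and deposited log2 signals for 35557 probesets. Whether arrays were further scaled to each other is not given in the sources used here, and the number of arrays limits precision. Gene names came from the platform annotation, using probesets that name 1 gene. The genes and gene lists were chosen with earlier results of these data known. All 34 genes are described, and from other lists the called genes or those with the smallest p. The 3 groups were fitted together in limma (version 3.58.1, run under R 4.3.3), with moderated two-sided tests. Each comparison's p-values were adjusted over the 35557 probesets by the Benjamini-Hochberg method, and an adjusted p under 0.25, the study's own threshold, was a call. The study's methods extracted RNA in matched triplets, but the labels do not tie replicate numbers to triplets, so no block was used in the reported fit. Single arrays far from their group were found with Dixon's test. Correlations used 100000 two-sided permutations within groups. The fit and correlation test were tested on simulated data. Alternatives were another scaling, filters, array weights, a replicate block and leaving out each array.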

Additional observations from a re-analysis of the deposited data

Results flagged for a closer look

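In groups of 6 arrays, the highest or lowest array was compared with its nearest neighbour by Dixon's test at its 95% critical value for each of the 34 genes and for the means of the smooth muscle, pericyte and fibroblast genes. Of 111 sets, 5 had an array that stood apart, and chance gives about 1 in 20. None of the 5 involved a mean over genes. Pups removed replicate 4 was high for 2 genes: Tpm2 at 7.22 against 6.98 for the next array, and Fmod at 8.35 against 7.93. Pdgfrb was low on maternal replicate 3, at 8.81 against 8.90. Col3a1 was high on maternal replicate 4, at 7.77 against 7.64. Lum was high on virgin replicate 2, at 6.51 against 6.03. The maternal arrays of Acta2 and Dcn were not picked out by this test, since 3 arrays shared the low level.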

How the results depend on the processing

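Over 29 alternatives the number of the 34 genes called stayed at 0 in 159 of 174 counts and was 1 in the other 15. For genes higher in maternal than in virgin mice the count was 1 (Fbln5) where probesets with a mean under 6 were left out, where only probesets naming 1 gene were tested, and with a trended robust prior, and 0 to 1 without single arrays. For genes higher in maternal than in pups removed mice it was 1 (Fbln5) under quantile normalization, both probeset filters, array weights and the Ttr covariate, which was added after the data were seen, and 0 to 1 without single arrays. For genes lower in maternal than in pups removed mice it was 1 (Rgs5) with only probesets naming 1 gene and with array weights. The cause was not tested. Replicate numbers did not pair the arrays: residuals of same-numbered arrays correlated at -0.25 to 0.10, and with a replicate block 0 of 34 genes were called in each comparison, beside 356, 9 and 70 probesets. Single differences with an unadjusted p under 0.05 kept their direction in all 319 refits, and means over the gene groups moved by less than 1 SD in all 198, although the maternal against virgin means of smooth muscle and fibroblast genes lay near 0 and changed sign in 4 and 6 of them. Leaving out 1 array moved the count of all probesets called between 10 and 1639 for maternal against virgin (585 with all arrays), 5 and 719 for maternal against pups removed (11), and 18 and 266 for pups removed against virgin (74). The other alternatives gave 90 to 924, 7 to 783 and 7 to 94, and an adjusted p under 0.05 gave 0, 5 and 7. With 6 arrays a group, the standard errors of a difference ran from 0.04 to 0.25 over the 34 genes.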
